A study of Homo sapiens with 12 samples.

Results

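AP-1 and immediate early genes are described here in QGP-1 and BON-1 pancreatic neuroendocrine tumor (pNET) cells before and after silencing of MUC1. The 10 genes, chosen by symbol, are FOS, FOSB, FOSL1, FOSL2, JUN, JUNB, JUND, EGR1, IER2 and DUSP1, and all 10 have a row among the 28008 genes of each count table. QGP-1 and BON-1 are established human cell lines, and each carried tet-MUC1shRNA, a doxycycline-inducible hairpin that silences MUC1. Cultures of both lines received 0.1% DMSO as the vehicle or 500 ng/mL doxycycline (DOX) for 7 days, and RNA-seq of 3 cultures in each of the 4 groups gave 12 libraries. The lines were grown in different media, so the line and its medium cannot be told apart. Cells with a control hairpin were not analysed here, so that DOX itself and the loss of MUC1 cannot be told apart either. Since RNA came from whole cultures, fewer cells that express a gene and less RNA per cell cannot be told apart.

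AP-1 is a transcription factor made of a pair of basic leucine zipper proteins. The FOS subunits (FOS, FOSB, FOSL1 and FOSL2) bind DNA only together with a JUN subunit (JUN, JUNB or JUND), whereas JUN subunits can also pair with each other. Most of these genes are immediate early genes, which growth factors and stress induce within minutes through MAP kinases, the serum response factor with its ELK partners, and CREB, and which fall again quickly because their transcripts are short-lived and because genes such as DUSP1 shut the kinases off. JUND is less dependent on stimulation than the others. EGR1 is a zinc finger transcription factor and IER2 a small nuclear protein of the same early wave.

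The QGP-1 libraries had totals of 38224144 to 50525926 counts, and the BON-1 libraries of 15981954 to 28484324. MUC1, the target of the hairpin, had a normalized level of 6.21 ± 0.846 CPM (SD, n = 3) with vehicle and 0.829 ± 0.183 with DOX in QGP-1 cells, and of 19.0 ± 2.91 and 2.70 ± 1.25 in BON-1 cells. CPM are counts scaled to a common library size by TMM within a line. All 10 neuroendocrine markers examined were above 1 CPM in QGP-1 cells and 9 of 10 in BON-1 cells, where NCAM1 was below 1 CPM. Of 6 markers of immune cells 4, PTPRC, CD3E and AIF1 among them, were below 1 CPM in every group, whereas LYZ rose with DOX in QGP-1 cells from 11.003 to 17.1 CPM and CD68 in BON-1 cells from 25.3 to 50.6 CPM.

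Early signals are known to act on promoters of this kind through a few short sites, and the stretches below are shown because their genes rose with DOX in QGP-1 cells or are among those that responded differently in the 2 lines. The stretch of IER2, to which both apply, is not shown. Those shown come from the RefSeq promoter table on GRCh38.p14, which covers 250 bases before and 50 after each start and which has an entry for 9 of the 10 genes, all but FOSL1. Each is written 5′ to 3′ on the strand of its gene and lies before the start that RefSeq gives. Capitals mark CArG boxes (the site of the serum response factor) and TGACG in EGR1, the cyclic AMP response element TGACGTCA with TGACG and CACGTG in DUSP1, TGACG in FOS, TGACATCA and TGACG in JUN, TGACGTCA with TGACG in JUND, and TGACG in FOSB.
EGR1, chr5:138465329-138465458, plus strand: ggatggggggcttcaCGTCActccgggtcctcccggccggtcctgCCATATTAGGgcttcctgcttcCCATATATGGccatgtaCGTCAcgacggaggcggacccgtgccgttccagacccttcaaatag
DUSP1, chr5:172771291-172771380, minus strand: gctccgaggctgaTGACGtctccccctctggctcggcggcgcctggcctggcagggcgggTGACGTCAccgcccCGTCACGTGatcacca
FOS, chr14:75278718-75278827, plus strand: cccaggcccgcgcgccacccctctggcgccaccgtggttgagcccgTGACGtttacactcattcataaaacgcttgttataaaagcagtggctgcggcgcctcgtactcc
JUN, chr1:58784078-58784177, minus strand: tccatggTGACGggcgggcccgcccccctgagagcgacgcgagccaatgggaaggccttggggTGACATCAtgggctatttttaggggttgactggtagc
JUND, chr19:18281683-18281837, minus strand: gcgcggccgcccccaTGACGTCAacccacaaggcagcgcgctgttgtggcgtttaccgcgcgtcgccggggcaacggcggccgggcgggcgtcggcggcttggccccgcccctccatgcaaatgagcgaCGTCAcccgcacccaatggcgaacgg
FOSB, chr19:45467906-45467995, plus strand: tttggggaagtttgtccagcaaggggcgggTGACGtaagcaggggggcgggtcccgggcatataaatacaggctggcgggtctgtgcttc

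Both strands were searched in the whole windows of 35116 promoters. Only exact matches within the windows were counted, so a site further upstream or with a changed letter was missed. A promoter without a match may therefore still have such a site elsewhere. The CArG box was found in 1 of the 9 promoters, that of EGR1, which has 2 of them, and in 1.29% of all promoters. TGACGTCA was found in DUSP1 and JUND, against 1.85% of all promoters, and TGACATCA in JUN, against 2.61%. The AP-1 site TGACTCA was found in FOSL2, against 4.95%, the E-box CACGTG in DUSP1, against 7.26%, and GCGNGGGCG, the letters bound by EGR1, in EGR1 itself, against 9.43%. GGGCGG was found in 7 of the 9 promoters and in 44.95% of all. TGACG, which lies within TGACGTCA on both strands and shares bases with CACGTG in DUSP1, was found in all 9 promoters and in 24.6% of all, and was searched for after the sequences had been read. A match of letters is a description and says nothing of binding in these cells.

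The question of the first comparison is how the 10 genes respond to silencing of MUC1 in QGP-1 cells. EGR1, DUSP1, FOSB, JUN, FOS and IER2 rose with DOX, and none of the 10 fell. FOSB, EGR1 and DUSP1 rose by factors of 2.62, 2.47 and 2.16, and JUN, FOS and IER2 by 1.55, 1.44 and 1.28. Thus 6 of 10 genes were called higher at an adjusted p below 0.05 by edgeR's quasi-likelihood test, where 17.3% of the 15089 genes tested were called higher and 17.7% lower. The median log2 fold change was 0.58 over the 10 genes and −0.01 over all genes tested. The DOX libraries lay above all vehicle libraries for 8 of 10 genes, the 6 named and FOSL1 and JUND, where 23.5% of all genes tested did so and 23.2% lay below.

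**Figure D1:**
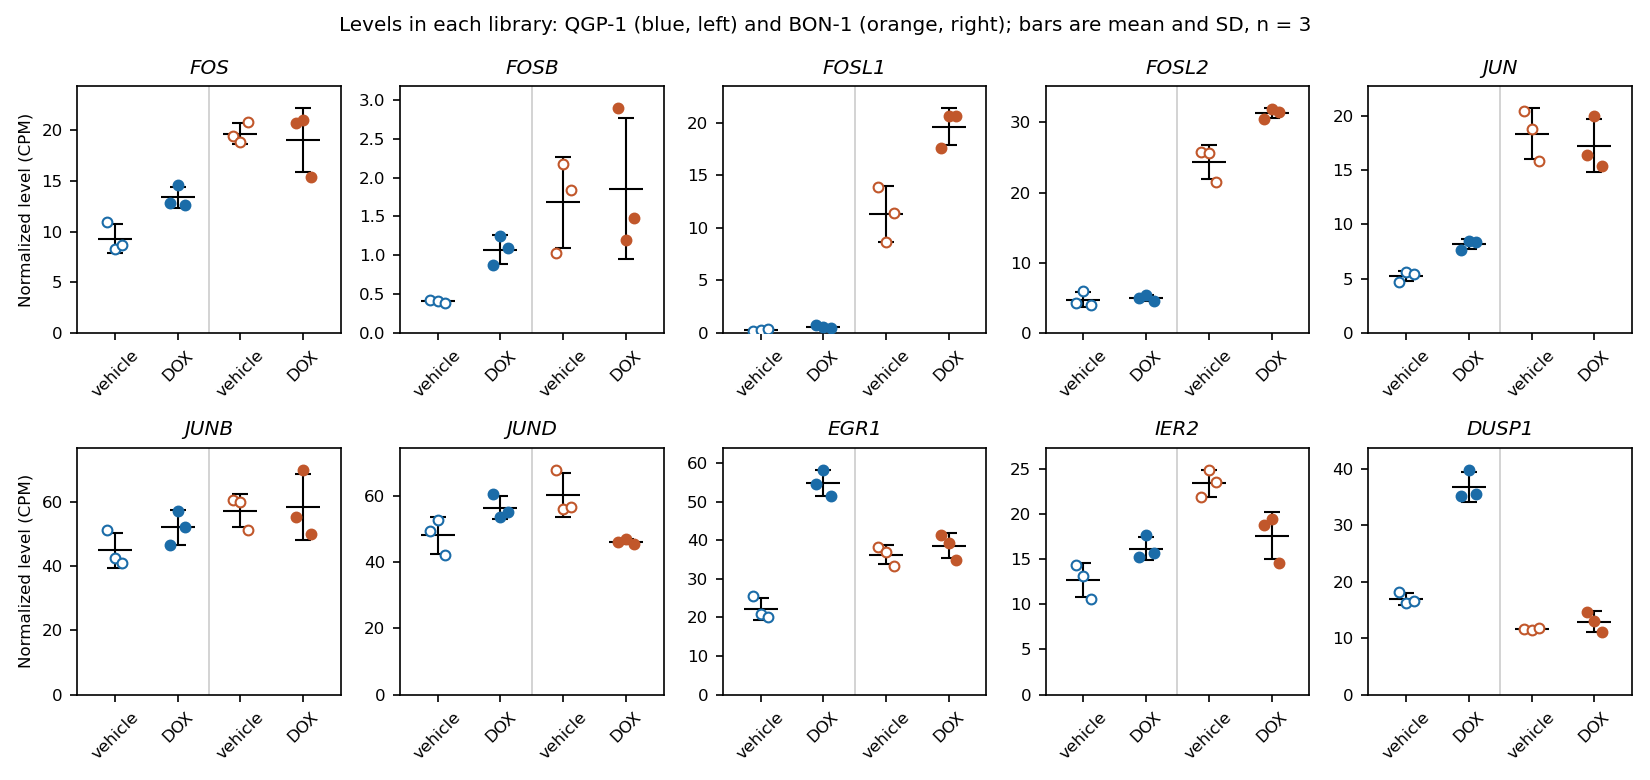
Normalized level in CPM (vertical axes, linear from 0) of each of the 10 genes in every library of QGP-1 (blue) and BON-1 cells (orange), with vehicle (open circles) and DOX (filled circles); bars are the mean and SD of 3 libraries. EGR1 and DUSP1 in QGP-1 cells have DOX libraries at 51.6 CPM and above and at 35.1 CPM and above, against at most 25.5 and 18.2 with vehicle, whereas in BON-1 cells their vehicle and DOX libraries overlap.

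Among the FOS subunits, FOS (chr14:75278826-75282230, plus strand of GRCh38) is the one whose induction defines the early response. It was at 10.9, 8.31 and 8.66 CPM in the 3 vehicle libraries of QGP-1 cells and at 12.8, 14.6 and 12.7 with DOX. The highest vehicle library, replicate 1, came close to the DOX libraries without reaching them. The log2 fold change was 0.53 (SE 0.13, adjusted p = 0.00634).

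FOSB (chr19:45467995-45475179, plus strand) encodes the subunit whose truncated form is long-lived. Its level was 0.420, 0.416 and 0.382 CPM with vehicle and 0.871, 1.24 and 1.09 with DOX, from only 16, 18 and 19 counts against 42, 49 and 47. All DOX libraries were above the vehicle libraries, although the gene was among the least expressed of the 10. Its log2 fold change was 1.39 (SE 0.41, adjusted p = 0.0168), and this call was lost when DOX replicate 2 (adjusted p = 0.0914), DOX replicate 3 (0.0574) or vehicle replicate 3 (0.0521) was left out.

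FOSL1 (chr11:65892049-65900573, minus strand), also called FRA1, is a subunit known from invasive carcinoma cells. In QGP-1 cells it was barely detected, with 6, 14 and 21 counts with vehicle and 35, 24 and 22 with DOX, or 0.157, 0.324 and 0.422 CPM against 0.726, 0.608 and 0.511. The groups did not overlap, but at this depth the log2 fold change of 1.00 had an SE of 0.51 and did not pass the test (adjusted p = 0.142). In the fit of all 12 libraries, where BON-1 cells add to the estimate of the spread, the same contrast passed (adjusted p = 0.0273). FOSL2 (chr2:28392448-28417317, plus strand), the FRA2 subunit, was at 4.27, 6.04 and 3.98 CPM with vehicle and 4.93, 5.48 and 4.53 with DOX. These groups overlapped fully, and the log2 fold change was 0.06 (SE 0.19, adjusted p = 0.826).

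Of the JUN subunits, JUN (chr1:58776845-58784048, minus strand) is the strongest activator and is known to act on its own promoter through the TGACATCA shown above. It was at 4.69, 5.62 and 5.45 CPM in QGP-1 cells with vehicle and at 7.65, 8.44 and 8.39 with DOX, with no overlap. Its log2 fold change was 0.63 (SE 0.14, adjusted p = 0.00317). JUNB (chr19:12791486-12793315, plus strand), which can oppose JUN, was at 51.2, 42.6 and 41.2 CPM with vehicle and at 46.6, 57.3 and 52.4 with DOX. Vehicle replicate 1 lay above DOX replicate 1, and the log2 fold change of 0.21 (SE 0.10, adjusted p = 0.120) did not pass, although it did without DOX replicate 1 (0.30, adjusted p = 0.0346) or without vehicle replicate 1 (0.32, adjusted p = 0.0394).

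JUND (chr19:18279694-18281622, minus strand), the subunit present in resting cells, was at 49.5, 52.9 and 42.1 CPM with vehicle and at 60.5, 53.8 and 55.3 with DOX. The groups were next to each other without overlap, and the log2 fold change of 0.23 (SE 0.09, adjusted p = 0.0679) missed the threshold, which it passed without vehicle replicate 2 (0.31, adjusted p = 0.04997) or without a filter on low counts (0.24, adjusted p = 0.0367). With limma on log2(TPM + 1), log2(TPM + 0.1) and rescaled TPM, scales on which the median of all genes was itself raised to 0.59, 0.73 and 0.29, JUND also passed (0.91, 0.97 and 0.55, with adjusted p = 1.28e-06, 3.04e-05 and 0.00499), as did JUNB (0.89, 0.95 and 0.53, with adjusted p = 8.27e-06, 0.000135 and 0.0134).

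EGR1 (chr5:138465479-138469303, plus strand) had the clearest response of the 10 genes. Its levels were 25.5, 20.9 and 20.1 CPM with vehicle and 54.7, 58.2 and 51.6 with DOX, from 905 to 1002 counts against 2220 to 2638. Each DOX library was above the highest vehicle library by more than the spread within either group. The log2 fold change was 1.31 (SE 0.10, adjusted p = 7.80e-07).

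DUSP1 (chr5:172768096-172771195, minus strand), the phosphatase that turns off p38, JNK and ERK in the nucleus, followed EGR1. It was at 18.2, 16.2 and 16.7 CPM with vehicle and at 35.1, 39.8 and 35.5 with DOX, a log2 fold change of 1.11 (SE 0.09, adjusted p = 1.67e-06). IER2 (chr19:13150411-13154911, plus strand) rose least among the called genes, from 14.4, 13.2 and 10.6 CPM to 15.2, 17.7 and 15.7, with a log2 fold change of 0.35 (SE 0.13, adjusted p = 0.0415). The gap between the highest vehicle and the lowest DOX library of IER2 was small, and the call was lost without DOX replicate 2 (adjusted p = 0.148), DOX replicate 3 (0.0666), vehicle replicate 2 (0.0836) or vehicle replicate 3 (0.155, with a log2 fold change of 0.23).

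The calls of FOS, JUN, EGR1 and DUSP1 held in QGP-1 cells when any single library was left out. The share of counts taken by the noncoding RNAs RN7SK, RN7SL1 and RN7SL2 also moved with DOX in this line, from 5.37 to 6.38% with vehicle to 3.30 to 4.53% with DOX, and its part in these results was not tested. For any 1 gene, the exact two-sided permutation test of 3 and 3 libraries has 0.1 as its smallest p, so the calls depend on the spread that edgeR estimates over all genes.

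The second comparison asks the same of BON-1 cells, and there the response of the 10 genes was mixed. FOSL1 and FOSL2 rose with DOX, JUND and IER2 fell, and the other 6 did not pass the test. These are 2 of 10 genes called higher, where 17.0% of the 14625 genes tested were higher, and 2 of 10 called lower, where 18.3% were lower, shares near those of all genes. The same 4 genes were those with no overlap between the groups, against 22.4% of all genes with DOX above vehicle and 23.9% with DOX below. Over the 10 genes the median log2 fold change was 0.06, and over all genes tested it was −0.01.

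FOSL1 was at 13.9, 8.65 and 11.4 CPM in BON-1 cells with vehicle and at 17.6, 20.6 and 20.6 with DOX. Every DOX library exceeded every vehicle library, and the log2 fold change was 0.79 (SE 0.15, adjusted p = 0.000168), which passed whichever library was left out. FOSL2 was at 25.8, 25.6 and 21.5 CPM with vehicle and at 30.5, 31.9 and 31.5 with DOX. Its log2 fold change of 0.36 (SE 0.11, adjusted p = 0.0101) fell to 0.27 (adjusted p = 0.0888) without vehicle replicate 3, the lowest of the group.

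FOS had 19.4, 18.8 and 20.8 CPM with vehicle and 20.7, 20.96 and 15.4 with DOX in BON-1 cells. FOSB had 1.03, 2.17 and 1.83 CPM with vehicle and 2.89, 1.20 and 1.48 with DOX, from 23 to 49 counts a library. Both genes overlapped between the groups, with log2 fold changes of −0.05 (SE 0.13, adjusted p = 0.796) for FOS and 0.14 (SE 0.40, adjusted p = 0.821) for FOSB.

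JUND was at 68.0, 56.1 and 56.7 CPM with vehicle and at 46.1, 47.1 and 45.5 with DOX. The DOX libraries lay within 2 CPM of each other and below all vehicle libraries. The log2 fold change was −0.38 (SE 0.09, adjusted p = 0.00172), and it passed whichever library was left out.

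JUN had 20.4, 18.8 and 15.8 CPM with vehicle and 16.4, 19.97 and 15.4 with DOX, and JUNB had 60.6, 59.99 and 51.4 against 55.5, 70.05 and 50.03. Both overlapped between the groups, with log2 fold changes of −0.09 (SE 0.14, adjusted p = 0.632) for JUN and 0.03 (SE 0.10, adjusted p = 0.860) for JUNB.

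IER2 was at 21.9, 24.9 and 23.6 CPM with vehicle and at 18.9, 19.5 and 14.6 with DOX in BON-1 cells. It fell by 0.41 on the log2 scale (SE 0.13, adjusted p = 0.0123), and the call was lost without DOX replicate 3, its lowest library (adjusted p = 0.0582), or without vehicle replicate 2 (0.0606).

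EGR1 and DUSP1, the genes with the firmest rise in QGP-1 cells, did not pass in BON-1 cells. EGR1 had 38.4, 37.1 and 33.4 CPM with vehicle and 41.3, 39.4 and 34.96 with DOX, a log2 fold change of 0.08 (SE 0.10, adjusted p = 0.549). DUSP1 had 11.5, 11.4 and 11.8 CPM with vehicle and 14.7, 13.1 and 10.99 with DOX, a log2 fold change of 0.16 (SE 0.15, adjusted p = 0.452).

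**Figure D2:**
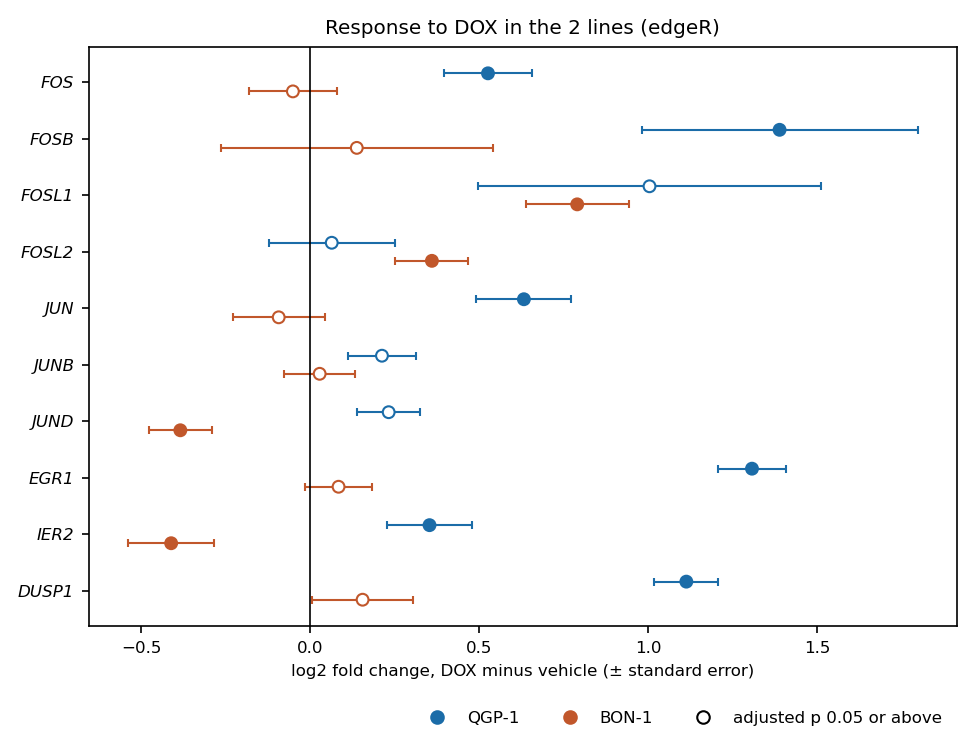
Log2 fold change of DOX over vehicle (horizontal axis) with its standard error for each gene in QGP-1 (blue) and BON-1 cells (orange), from edgeR; filled circles have an adjusted p below 0.05. All 10 QGP-1 values lie above 0, from 0.06 for FOSL2 to 1.39 for FOSB, whereas the BON-1 values run from −0.41 for IER2 to 0.79 for FOSL1.

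The difference between the lines was tested directly with edgeR, by an interaction term fitted over all 12 libraries. The response was lower in BON-1 than in QGP-1 cells for 6 of 10 genes, and higher for none. Over the 16598 genes tested 7.92% were called lower in this sense and 8.80% higher. EGR1 differed most firmly, with a response smaller by 1.21 on the log2 scale in BON-1 cells, a difference of −1.21 (SE 0.15, adjusted p = 2.69e-06). DUSP1 followed with −0.95 (SE 0.16, adjusted p = 0.000259).

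IER2 rose in QGP-1 and fell in BON-1 cells, and JUND, with 0.23 in QGP-1 cells, fell in BON-1 cells. The differences were −0.75 for IER2 (SE 0.19, adjusted p = 0.00648) and −0.61 for JUND (SE 0.14, adjusted p = 0.00344). For JUN the difference was −0.72 (SE 0.20, adjusted p = 0.0160), and it missed the threshold without BON-1 vehicle replicate 1 (−0.65, adjusted p = 0.0519).

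FOS had a difference of −0.57 (SE 0.19, adjusted p = 0.0442), which is not firm. It was lost without any 1 of 7 libraries, namely DOX replicate 2 (adjusted p = 0.116) and vehicle replicates 2 (0.113) and 3 (0.0972) of QGP-1 cells, and DOX replicate 3 (0.109) and vehicle replicates 1 (0.0703), 2 (0.0565) and 3 (0.0854) of BON-1 cells. The remaining 4 genes did not pass, with differences of −1.24 for FOSB (SE 0.60, adjusted p = 0.170), −0.18 for FOSL1 (SE 0.37, adjusted p = 0.801), 0.31 for FOSL2 (SE 0.20, adjusted p = 0.335) and −0.18 for JUNB (SE 0.16, adjusted p = 0.511). The errors of FOSB and FOSL1 were the widest of the 10, so a moderate difference for them could have been missed, and for FOSB even one as large as its estimate.

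Before DOX, the lines already differed in most of these genes. With vehicle, 9 of 10 genes were higher and 1, DUSP1, was lower in BON-1 than in QGP-1 cells, where 37.5% of all genes tested were called higher and 37.5% lower. For this comparison the CPM were scaled over the 12 libraries together. FOSL1 differed most, with 0.309 ± 0.137 CPM (SD, n = 3) in QGP-1 and 10.99 ± 2.61 in BON-1 cells, a log2 difference of 5.10 (SE 0.26, adjusted p = 6.62e-15). FOSL2 was at 4.89 ± 1.14 and 23.6 ± 2.59 CPM, a log2 difference of 2.28 (SE 0.15, adjusted p = 5.75e-13).

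JUN was at 5.39 ± 0.505 CPM in QGP-1 and at 17.8 ± 2.44 in BON-1 cells, a log2 difference of 1.73 (SE 0.15, adjusted p = 9.22e-11). FOSB differed by 1.95 (SE 0.44, adjusted p = 0.000354) and FOS by 1.00 (SE 0.14, adjusted p = 4.31e-07). IER2 and EGR1 were higher in BON-1 cells by 0.81 (SE 0.13, adjusted p = 5.88e-06) and 0.64 (SE 0.10, adjusted p = 5.87e-06) on the log2 scale. The level of EGR1 in QGP-1 cells with DOX, 56.2 ± 3.44 CPM on this scale, stood beside 35.3 ± 2.84 in BON-1 cells with vehicle, a pair that was not tested.

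DUSP1 went the other way, with 17.4 ± 1.09 CPM in QGP-1 and 11.3 ± 0.155 in BON-1 cells, a log2 difference of −0.63 (SE 0.12, adjusted p = 3.22e-05). JUNB and JUND were nearly level, with differences of 0.28 (SE 0.11, adjusted p = 0.0339) and 0.25 (SE 0.10, adjusted p = 0.0242). The call of JUNB was lost without vehicle replicate 2 (adjusted p = 0.112) or 3 (0.129) of QGP-1 cells or vehicle replicate 1 (0.145) or 2 (0.127) of BON-1 cells, and that of JUND without vehicle replicate 3 of QGP-1 cells (0.156, with a log2 difference of 0.16) or vehicle replicate 1 of BON-1 cells (0.202, with 0.14).

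Levels of different genes were compared per length, as the authors' TPM values rescaled to a common total without RN7SK, RN7SL1 and RN7SL2, and the order was read within each group. JUNB and JUND were the most abundant of the 10 in all 4 groups. In QGP-1 cells with vehicle they stood at 51.0 ± 7.90 and 49.8 ± 7.21 TPM (SD, n = 3), with overlapping libraries, and a gap separated them from DUSP1 at 17.0 ± 1.54. EGR1 at 13.5 ± 2.21, IER2 at 12.5 ± 2.35 and FOS at 8.61 ± 1.56 came next, each overlapping its neighbour. JUN at 2.99 ± 0.235 and FOSL2 at 2.23 ± 0.551 formed a lower pair, and FOSL1 and FOSB were below 0.5 TPM in every vehicle library.

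In BON-1 cells with vehicle JUNB at 78.8 ± 7.98 and JUND at 75.4 ± 7.21 TPM again overlapped at the top, followed by IER2 and EGR1 at 28.0 ± 2.46 and 26.7 ± 2.09. FOS at 22.1 ± 0.873 stood alone. FOSL1, DUSP1, FOSL2 and JUN lay between 10.8 and 19.5 TPM and each overlapped the next in order, and FOSB was last at 1.01 ± 0.374. With DOX the libraries of JUNB and JUND no longer overlapped in BON-1 cells, at 78.1 ± 13.8 against 56.4 ± 3.34 TPM, and DUSP1 and EGR1 in QGP-1 cells stood at 45.9 ± 4.60 and 41.7 ± 3.38 with a gap to IER2 at 19.98 ± 2.21. FOSB had the lowest mean in every group, although in QGP-1 cells its libraries overlapped those of FOSL1 with vehicle and with DOX.

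**Figure D3:**
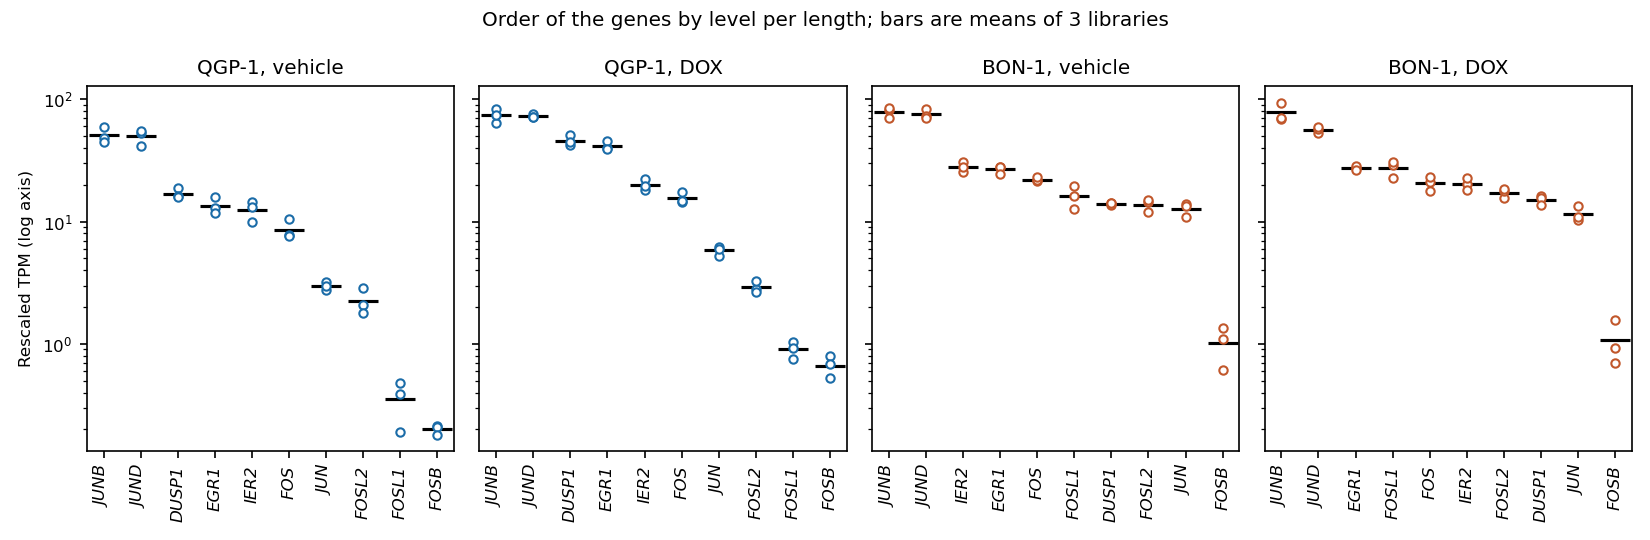
The 10 genes ordered by mean level in each of the 4 groups, as rescaled TPM on a log axis, with open circles for the 3 libraries and bars for their means. By their means JUNB and JUND lead in every group and FOSB is last, and FOSL1 is next to last in QGP-1 cells but among the middle genes in BON-1 cells, from 12.8 to 30.5 TPM.

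Replicate libraries of these short-lived transcripts were compared as well. The SD of log2 CPM within groups, pooled over vehicle and DOX, had a median over the 10 genes of 0.16 for QGP-1 and 0.18 for BON-1 libraries, beside 0.14 and 0.15 over all genes tested. Counting error alone would give a median SD of 0.06 for the 10 genes in QGP-1 and 0.07 in BON-1 cells. FOSL1 in QGP-1 cells at 0.47 and FOSB in BON-1 cells at 0.58 varied most, with counting errors of 0.32 and 0.25, and DUSP1 at 0.09 in QGP-1 cells and FOSL2 at 0.11 in BON-1 cells varied least in their lines.

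Some libraries were high or low for many of the genes together, and the matching shares over all genes were not counted. In QGP-1 cells DOX replicate 2 was the highest of its group for 8 of 10 genes, all but FOSL1 and JUND. Vehicle replicate 1 was the highest for 6 of 10 (DUSP1, EGR1, FOS, FOSB, IER2 and JUNB) and vehicle replicate 3 the lowest for 6 of 10. In BON-1 cells DOX replicate 3 was the lowest of its group for 7 of 10, FOS, JUN, JUNB, JUND, EGR1, IER2 and DUSP1, with a median deviation from the group mean of −0.18 on the log2 scale. That library also had the smallest share of RN7SK, RN7SL1 and RN7SL2 among the BON-1 libraries with DOX, 1.55% of counts against 2.98 and 3.77%. In BON-1 vehicle replicate 2 this share was 1.35%, with a median deviation of 0.04. MUC1 was higher in DOX replicate 3 of BON-1 cells, at 3.97 CPM, than in replicates 1 and 2, at 1.48 and 2.65. The part of this share and of MUC1 in the deviation was not tested. Over all genes, BON-1 DOX replicate 3 differed from replicates 1 and 2 by a chi-square per gene of 22.5 and 17.2, against 7.25 between replicates 1 and 2. For QGP-1 vehicle replicate 3 the values were 24.8 and 20.3, against 8.48. In QGP-1 cells with DOX replicate 1 stood apart instead, with 28.3 and 29.7 against 11.4. The part of such differences between whole libraries in the counts above was not tested.

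**Figure D4:**
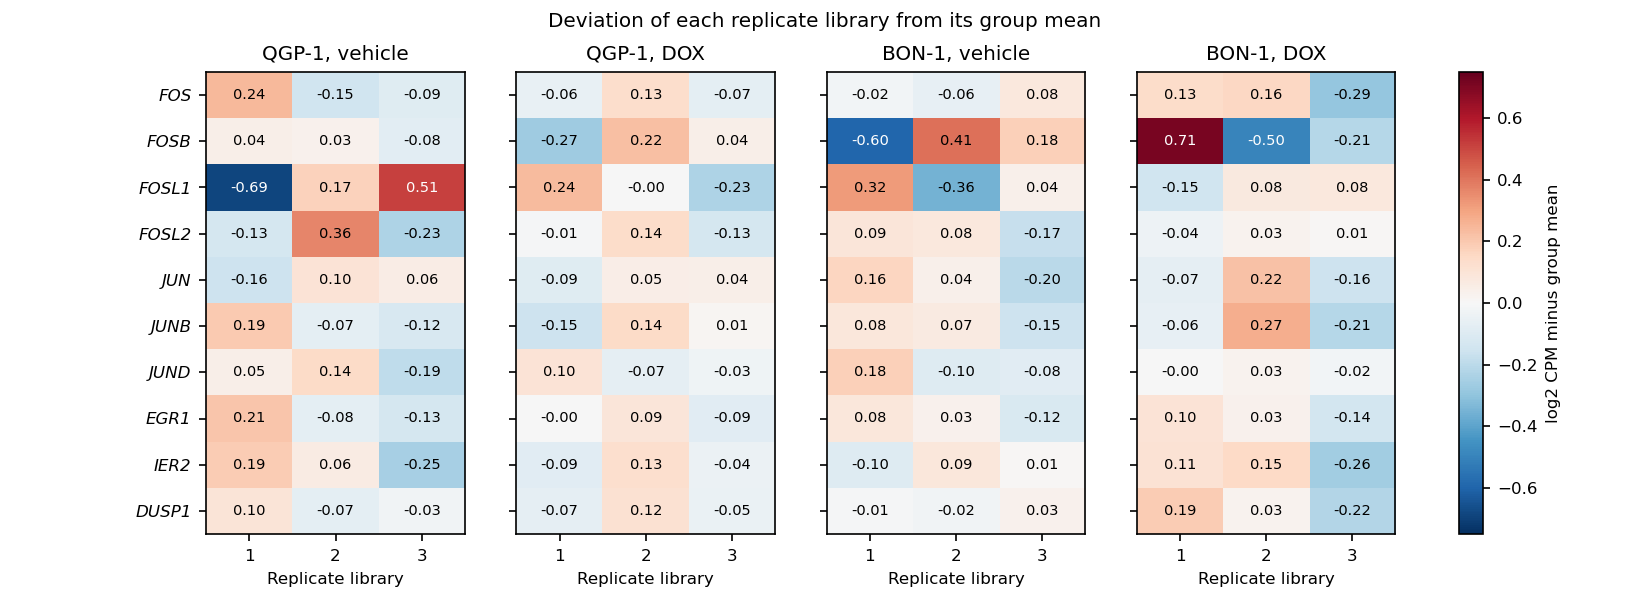
Deviation of each replicate library from the mean of its group (log2 CPM, color scale and printed values) for the 10 genes in the 4 groups. BON-1 DOX replicate 3 is negative for FOS (−0.29), IER2 (−0.26), DUSP1 (−0.22) and JUNB (−0.21), and FOSB and FOSL1 have the widest deviations.

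The genes whose pattern over the 12 libraries was most like that of each gene were found by Pearson's r of log2 CPM centred on the mean of each line, among 9721 genes (9722 for FOSB and FOSL1). These libraries share the 4 groups, so r holds the response to DOX as well as the scatter. EGR1 was most like DLL4 (r = 0.99), a NOTCH ligand, EPHA4 (0.99), an ephrin receptor, and SPRY4 (0.98), an inhibitor of receptor tyrosine kinase signaling. DUSP1 was likewise close to DLL4 (0.98) and EGR1 (0.98), and FOS to EXTL3 (0.93) and PDE4DIP (0.92).

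IER2 was most like AGAP3, MYO9B and PLEKHA6 (0.98, 0.98 and 0.97), and JUND most like H1F0, a linker histone (0.97), SEPT3 (0.95) and DPYSL5 (0.94). For JUN these were SENP5, ENTPD7 and GATA2 (0.93, 0.92 and 0.92), for JUNB XAB2, ARHGEF18 and ADGRG1 (0.93, 0.93 and 0.92), and for FOSL1 TUBE1, B3GALT1 and ELF1 (0.96, 0.94 and 0.92). FOSB and FOSL2 had weaker matches, led by DCAKD, KIAA0754 and FAM76B (0.88, 0.88 and 0.87) and by NHSL1, TRAM2 and LIMD1 (0.87, 0.86 and 0.86). Among the 10 genes themselves r had a median of 0.53 over the 45 pairs, and it ran from −0.21 for FOSL1 and IER2 to 0.98 for EGR1 and DUSP1.

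Other immediate early genes outside the 10 rose in both lines more often than they fell. Of 35 tested in QGP-1 cells 17 were higher and 1 lower with DOX, beside 17.3% and 17.7% of all genes, and of 33 in BON-1 cells 17 were higher and 2 lower, beside 17.0% and 18.3%. The median log2 fold changes were 0.33 and 0.43. The counts of the lists that follow stand beside these same shares of all genes. ID1, an inhibitor of basic helix-loop-helix factors, rose in QGP-1 cells from 21.6 ± 1.72 to 49.2 ± 8.27 CPM (SD, n = 3; log2 fold change 1.19, adjusted p = 7.38e-06) and fell by 0.60 in BON-1 cells, and the 2 responses differed (adjusted p = 2.73e-08). EGR3, a relative of EGR1, rose in QGP-1 cells by 1.08 (SE 0.14, adjusted p = 7.33e-05).

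CTGF, a matricellular protein gene, rose in both lines, by 0.94 (adjusted p = 0.00842) in QGP-1 and 1.49 (adjusted p = 3.59e-13) in BON-1 cells. TIPARP, a mono-ADP-ribosyltransferase gene, went from 124 ± 7.01 to 235 ± 15.2 CPM in BON-1 cells, a log2 fold change of 0.93 (adjusted p = 2.84e-10), and rose by 0.37 in QGP-1 cells. SOCS3, an inhibitor of cytokine signaling, rose by 1.04 (adjusted p = 0.00590) in BON-1 cells and had 0.02 in QGP-1 cells. A larger response in BON-1 cells was called for 8 and a smaller one for 4 of 35 genes of this list, beside 8.80% and 7.92% of all genes.

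Genes that restrain MAP kinases, relatives in function of DUSP1, were called higher for 9 of 17 in QGP-1 and 8 of 16 in BON-1 cells, and lower for 1 in each. SPRY4, SPRED3 and DUSP10 rose in QGP-1 cells by 0.66, 0.63 and 0.63 on the log2 scale, had 0.09, 0.17 and 0.06 in BON-1 cells, and differed between the lines (adjusted p = 0.000660, 0.0132 and 0.00748). DUSP5 and DUSP4, phosphatases of ERK, rose in BON-1 cells by 1.09 and 0.71, had 0.16 and 0.09 in QGP-1 cells, and also differed (adjusted p = 1.33e-06 and 7.48e-05). DUSP14 rose in both lines, by 0.51 in QGP-1 and 0.56 in BON-1 cells.

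Of the factors and kinases upstream of immediate early genes 5 of 26 were higher and 5 lower in QGP-1 cells, and 3 of 25 higher and 3 lower in BON-1 cells, counts near or below the shares of all genes. ELK3, a partner of the serum response factor that acts mainly as a repressor, fell in both lines, from 27.0 ± 2.09 to 14.2 ± 0.636 CPM in the QGP-1 line and from 129 ± 6.49 to 69.98 ± 2.99 CPM in the BON-1 line. The log2 fold changes were −0.93 (SE 0.10, adjusted p = 1.35e-05) and −0.88 (SE 0.08, adjusted p = 1.18e-09). In QGP-1 cells MEF2C and the kinase gene MAPK3 fell by 0.50 and 0.46, and in BON-1 cells CREM, a relative of CREB, rose by 0.84. RPS6KA3, a kinase downstream of ERK, rose in both lines, by 0.74 in BON-1 and 0.42 in QGP-1 cells.

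Other basic leucine zipper partners of AP-1 gave 3 higher and 1 lower of 13 in QGP-1 cells and 1 higher and 3 lower of 13 in BON-1 cells, too few to set apart from the 17.0% to 18.3% of all genes. ATF7 rose in both lines, by 0.29 (SE 0.08, adjusted p = 0.00966) in QGP-1 and 0.24 (SE 0.08, adjusted p = 0.0193) in BON-1 cells. In QGP-1 cells JDP2, a repressor of AP-1, fell by 1.43 (SE 0.49, adjusted p = 0.0342) from a level of 0.732 ± 0.234 CPM. In BON-1 cells BATF3, BATF2 and ATF2 fell by 1.102, 1.04 and 0.31.

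Among genes known as AP-1 targets, 7 of 20 were higher and 2 lower in QGP-1 cells, and 10 of 22 higher and 3 lower in BON-1 cells, beside 17.3% and 17.7%, and 17.0% and 18.3%, of all genes. The collagenase genes MMP1 and MMP13 rose in QGP-1 cells by 1.26 (SE 0.17, adjusted p = 7.74e-05) and 1.16 (SE 0.19, adjusted p = 0.000344), to 7.13 ± 0.296 and 7.54 ± 1.35 CPM, and the metallothionein gene MT2A by 0.85 (SE 0.10, adjusted p = 2.73e-05). MMP1 and MT2A had log2 fold changes of 0.23 and 0.03 in BON-1 cells and differed between the lines (adjusted p = 0.00855 and 0.000185). MMP13 rose in BON-1 cells as well, by 0.73 (adjusted p = 0.00243), and a difference between the lines did not pass (adjusted p = 0.303). In BON-1 cells the leading members were ligands of the EGF receptor family, with EREG at 1.82 (SE 0.10, adjusted p = 3.22e-14), AREG at 1.53 (SE 0.17, adjusted p = 8.36e-08) and HBEGF at 0.94 (SE 0.31, adjusted p = 0.0173). HBEGF was low, at 1.75 CPM with vehicle and 3.41 with DOX. In QGP-1 cells AREG had 0.69 and HBEGF 0.24, neither called, and EREG was not tested. A difference between the lines did not pass for AREG or HBEGF (adjusted p = 0.0812 and 0.210). For EREG it was 1.83 (adjusted p = 0.608), which decides nothing because EREG did not pass the filter on low counts in QGP-1 cells.

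The list of EGR1 corepressors and targets had 4 of 8 genes higher and 0 lower in QGP-1 cells and 3 of 7 higher and 2 lower in BON-1 cells. THBS1, which encodes thrombospondin, rose in both lines, by 1.04 in each (SE 0.07 and 0.08), with a difference of 0.01 (adjusted p = 0.982). FGF2 and F3 rose in QGP-1 cells by 0.63 and 0.52. PDGFA, a known target of EGR1, fell in BON-1 cells by 1.37 (SE 0.14, adjusted p = 1.95e-08) and had 0.41 in QGP-1 cells, with a difference between the lines of −1.77 (adjusted p = 3.41e-05). TGFB1 fell in BON-1 cells by 0.85.

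**Figure D5:**
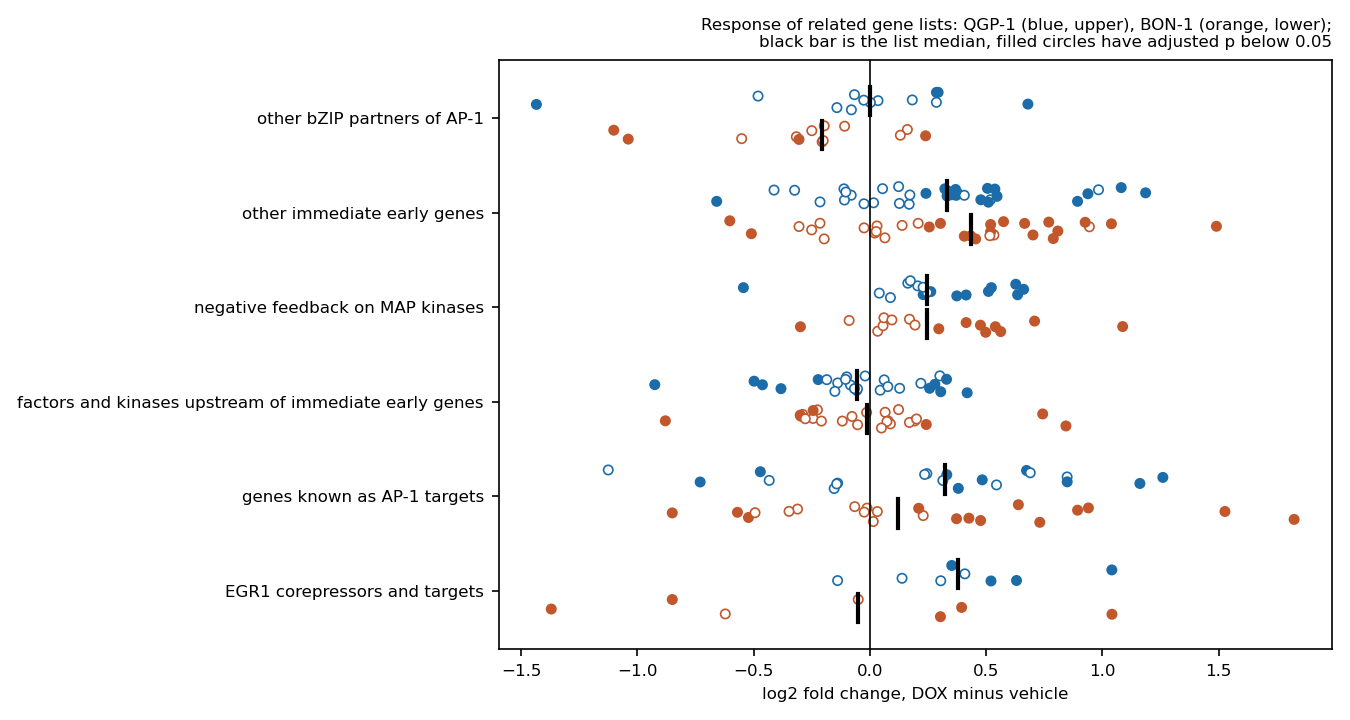
Log2 fold change of DOX over vehicle (horizontal axis) for every tested gene of 6 related lists in QGP-1 (blue) and BON-1 cells (orange); filled circles have an adjusted p below 0.05 and black bars are list medians. Other immediate early genes have medians of 0.33 and 0.43 and genes of negative feedback 0.25 and 0.24, whereas upstream factors and kinases have −0.06 and −0.01.

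Of the neuroendocrine markers 3 of 10 were called higher and 1 lower in QGP-1 cells, and 2 of 9 higher and 3 lower in BON-1 cells. Their median log2 fold change was 0.19 in QGP-1 cells, where 8 of 10 were positive, and −0.05 in BON-1 cells, and the difference between the lines was negative for 9 of 10, with a median of −0.20 and 2 calls. Chromogranin A (CHGA) fell in BON-1 cells from 8104 ± 1428 to 2936 ± 215 CPM, and it had a log2 fold change of 0.15 in QGP-1 cells, not called. SYP also fell in BON-1 cells, by 0.34, whereas SCG2 rose there from 2697.5 ± 122 to 3686 ± 5.12 CPM. In QGP-1 cells CHGB and SCG3 rose by 0.39 and 0.34, and NCAM1 fell by 0.51. The fall of CHGA is part of the BON-1 sum given next. The summed level of the 10 markers was 5974 to 6810 CPM with vehicle and 6741 to 7377 with DOX in QGP-1 cells, and 11850 to 15237 against 9390 to 9892 in BON-1 cells, and its part in the results above was not tested. Summed markers of acinar and duct cells went from 101 to 166 CPM with vehicle to 43.2 to 56.2 with DOX in QGP-1 cells, and from 206 to 242 to 295 to 369 in BON-1 cells, with AMY2A, CELA3A, CFTR and CPA1 below 1 CPM in all groups. The members of this sum did not move together. PRSS1 fell in both lines, by 1.83 in QGP-1 and 0.75 in BON-1 cells on the log2 scale. In BON-1 cells CPA1 fell as well, by 1.72, and the rise of the sum came from KRT19, which rose by 0.79. Summed markers of immune cells went from 10.5 to 12.9 to 16.9 to 21.0 CPM and from 26.0 to 28.0 to 51.7 to 57.4, almost all of it from LYZ and CD68. Those of fibroblasts went from 1.81 to 3.66 CPM with vehicle to 1.14 to 1.32 with DOX in QGP-1 cells, where COL1A1 fell, and from 5.22 to 6.65 to 10.7 to 11.6 in BON-1 cells, where LUM rose. Those of endothelial cells were at or below 41.4 CPM in every library, with CDH5, PECAM1 and VWF below 1 CPM in all groups.

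Reads of some members could be shared with other genes. JUNB shares 259 exon bases with HOOK2 on the opposite strand, and IER2 shares 662 and 946 with a pair of noncoding RNA genes on the opposite strand that have no row in the count tables. The libraries keep the strand, but whether the counting used it is not given in the sources used here, so the values of JUNB and IER2 carry this uncertainty. FOSB and DUSP1 overlap genes on the opposite strand without shared exon bases. FOSL2 overlaps a noncoding RNA gene on each strand, also without shared exon bases. FOSL1 has 1 annotated pseudogene, and whether reads were shared with it was not tested.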

How the data were processed

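Stranded mRNA libraries were made by the authors, who used STAR for alignment to GRCh38. The authors deposited raw counts per gene for each line. The TPM values they deposited are counts relative to gene length, brought to 1 total per library. The version of STAR and the counting program are not given in the sources used here. The submitters' processing notes also name DESeq2.

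A quasi-likelihood fit by edgeR 4.0.16 (R 4.3.3) was applied to the counts after its default filter on low counts and TMM normalization, within each line, and for the differences between lines in 1 fit of 12 libraries. Benjamini-Hochberg adjustment covered all genes tested, with a threshold of 0.05 and no minimum fold change. The SE is the log2 fold change divided by the square root of F. As alternatives, DESeq2 1.42.0 was run, edgeR was run with library sizes alone, without the filter, with a filter of 10 counts in each library, with a replicate block and on both lines together, and limma 3.58.1 was run on log2(TPM + 1) or log2(TPM + 0.1), keeping mean TPM of 1 or more. Others were a minimum absolute log2 fold change of 1, and leaving out each library in turn. On counts simulated from the QGP-1 libraries with 200 genes changed 2-fold, among 14912 genes, edgeR recovered 162 of the 200, with 7 false calls among 169. For BON-1 it recovered 174 of 195 among 14441 genes, with 13 false calls among 187, and for the difference between the lines 116 of 198 among 16366 genes, with 13 among 129. Fewer genes were changed there than were called in the data, and all by 2-fold. The recovery of smaller changes, such as those of JUN, FOS and IER2 in QGP-1 cells, was not simulated.

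The 10 genes and the related lists were chosen with earlier results of these data known. From each list, in each line, up to 3 genes with the largest change among those called and without overlap between groups were named, and for each of the 10 genes the 3 genes of highest r at a mean log2 CPM of at least 3. Log2 CPM used a prior count of 2. Gene positions come from GENCODE v44 on GRCh38. Total counts per library make the counting error small except for FOSB and, in QGP-1 cells, FOSL1. Replicates are separate cultures, and in each pair they differed by more than sampling noise, with a chi-square per gene of at least 5.92. Protein sequences of the members were not used here, and a few genes that these rules name are not reported here.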

Additional observations from a re-analysis of the deposited data

Results flagged for a closer look

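The response to DOX differed between the lines, by the interaction test of edgeR, for 6 of the 10 genes, and each of them is singled out here for that reason. The response in BON-1 minus that in QGP-1 cells was −1.21 for EGR1, −0.95 for DUSP1, −0.75 for IER2, −0.72 for JUN, −0.61 for JUND and −0.57 for FOS, on the log2 scale. The vehicle level of EGR1, IER2, JUN, JUND and FOS was higher, and that of DUSP1 lower, in BON-1 cells, and the part of these levels in the difference was not tested. Groups of 3 libraries are too small for a test of single outlying libraries.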

How the results depend on the processing

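With DESeq2, library size and at least 10 counts in every library, the numbers of the 10 genes called stayed within 1.5 times in the 4 comparisons. In the TPM values RN7SK, RN7SL1 and RN7SL2 make up 71.2 to 80.3% in QGP-1 and 50.9 to 74.3% in BON-1 cells, and since a shift remained without them, the cause of the whole shift was not tested. On log2(TPM + 1) the median of all genes moved to 0.59 in QGP-1 and −0.31 in BON-1 cells, with 9149 genes higher and 89 lower against 2610 and 2676 by edgeR, and with 34 higher and 335 lower against 2488 and 2677. With log2(TPM + 0.1) the numbers were 9139 and 87, and 44 and 356. After rescaling without those 3 RNAs, an alternative chosen after seeing the data, they were 6491 and 659, with a median of 0.29, and 1171 and 2103, with −0.05. In BON-1 cells limma tested 9 of the 10 genes at either pseudocount, all but FOSB. It called 0 higher and 0 lower there, against 2 and 2 by edgeR, and 1 higher (FOSL1) and 2 lower of 10 after rescaling. In QGP-1 cells limma tested 7 at either pseudocount, without FOSB, FOSL1 and FOSL2, and 8 after rescaling, so the rise of FOSB was not examined on TPM. Relative to the median of all genes on log2(TPM + 1), EGR1 was at 1.12 and DUSP1 at 1.00 in QGP-1 cells. On that scale FOS was at 0.32, IER2 at 0.26 and JUN at only 0.09, against 0.53, 0.35 and 0.63 by edgeR. JUNB and JUND were at 0.29 and 0.31, against 0.21 and 0.23. Relative to the median on log2(TPM + 0.1), FOS, IER2 and JUN were at 0.50, 0.34 and 0.52. After rescaling they were at 0.50, 0.35 and 0.49, so the low value of JUN was particular to log2(TPM + 1). Of genes that did not pass in BON-1 cells, JUNB turned negative with library size (−0.0172), log2(TPM + 1) (−0.33), log2(TPM + 0.1) (−0.35) and rescaled TPM (−0.0213), EGR1 with log2(TPM + 1) (−0.25) and log2(TPM + 0.1) (−0.28), and DUSP1 with −0.18 and −0.21. A scaling by library size split the interaction into 1123 genes higher and 1823 lower, against 1461 and 1315, and moved the median of the vehicle comparison to 0.13. A minimum absolute log2 fold change of 1 left 3 of the 10 genes higher in QGP-1 cells, 0 higher and 0 lower in BON-1 cells, 1 (EGR1) in the interaction, and 5 higher and 0 lower between the lines with vehicle. Over all genes it left 183 higher and 360 lower in QGP-1, 272 and 447 in BON-1 cells, 386 and 293 in the interaction, and 3613 and 3118 between the lines. Leaving out each library in turn gave 4 to 7 of the 10 genes higher and 0 lower in QGP-1 cells, against 6 and 0 with all libraries. In BON-1 cells it gave 1 to 2 higher and 1 to 2 lower. The log2 fold change crossed 0 for FOSL2 in QGP-1 cells (−0.0544 to 0.27), for FOS (−0.14 to 0.0659), FOSB (−0.32 to 0.37) and JUNB (−0.13 to 0.11) in BON-1 cells, and the difference between the lines did so for FOSL1 (−0.52 to 0.0872). None of these 5 had passed the test. The labels do not say whether equal replicate numbers mark paired cultures. Deviations of same-numbered vehicle and DOX libraries were correlated at −0.02 to 0.05 in QGP-1 and −0.04 to 0.07 in BON-1 cells. These values show no sign of pairing but cannot exclude it. With the replicate block 6 of the 10 genes were higher in QGP-1 cells and 2 higher and 2 lower in BON-1 cells. Between the lines 5 in place of 6 differed, with FOS at −0.58 (adjusted p = 0.0510). Over all settings of the single genes, 574 values kept their direction and their side of the threshold, 51 lost the call, 11 gained it and 17 changed sign. The counts of FOSB and FOSL1 in QGP-1 cells, at most 49, limit what could be called there.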
